A study of Pyrocoelia pectoralis with 6 samples.

Results

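The enzyme genes hsdl2 (RI129_001276), serhl (RI129_008074) and ACY1 (RI129_001233), were followed in males of the firefly Pyrocoelia pectoralis, in the luminous and the non-luminous organ. They were chosen by identifier among 12533 genes because they were nearly absent from the non-luminous organ. Messenger RNA was measured by sequencing in 6 libraries, 3 per organ, all of them from males. The labels describe the non-luminous organ no further, and they give no age, no treatment and no statement on whether a library holds 1 animal or a pool, so the spread between libraries may be partly technical. Levels are FPKM as deposited by the authors, that is, reads per length of gene and size of library. Whole read numbers could be worked back from the steps between low FPKM values, and the library totals behind the values lay between 18037627 and 20417645 reads.

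A firefly lantern makes light in photocytes, cells packed with peroxisomes that hold luciferase, which oxidises luciferin with ATP and oxygen. HSDL2 is known from mammals as a peroxisomal protein of the short-chain dehydrogenase family, enzymes that pass hydrogen between NAD(P) and alcohols or ketones, and it carries a sterol carrier domain. SERHL is a serine hydrolase with the alpha/beta fold, a fold shared by enzymes that cut esters, epoxides and amides, and its substrate is not settled. Aminoacylase 1 is a zinc enzyme of the M20 family that releases the free amino acid from N-acylated amino acids in mammals. The gene names rest on similarity to proteins of other species, and the enzymes' activities in this firefly were not measured.

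The dehydrogenase gene hsdl2 was the most abundant of the 3. It stood at 343, 193 and 123 FPKM in luminous replicates 1, 2 and 3, and it had no read in any of the 3 non-luminous libraries. All luminous libraries were therefore high, with a 2.78-fold range among them, and the groups did not overlap, which was so with the luminous organ higher for 17.4% of all genes tested. The values rest on 8610, 4943 and 2927 reads against 0, and a count of 0 allows up to 0.127, 0.130 and 0.133 FPKM in non-luminous replicates 1, 2 and 3 at 3 reads each, counting error only. The luminous mean was 220 ± 112 FPKM (SD, n = 3), rank 484 of all genes in that organ, and at least 5070-fold higher than a floor of 3 reads over the whole non-luminous organ. At any level, 233 genes had no read in the non-luminous organ. Of these, hsdl2 alone was among the 9863 genes whose 6 libraries averaged 1 FPKM or more. A gene without a read in the non-luminous organ reaches that mean only through its luminous libraries. Absence from the non-luminous organ also chose hsdl2, so this describes the choice. Of those 9863 genes, 20 had no read in the luminous organ.

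The hydrolase gene serhl stood at 69.1, 90.3 and 41.9 FPKM in luminous replicates 1, 2 and 3. In the non-luminous organ it stood at 0.595 FPKM in replicate 1 and at 0 in replicates 2 and 3. Its 3 luminous libraries were all above its single non-luminous library with reads, the lowest of them by 70.4-fold. Those values came from 1234, 1642 and 707 luminous reads, while the non-luminous signal was 10 reads, all of them in replicate 1. The means were 67.1 ± 24.3 and 0.198 ± 0.344 FPKM (SD, n = 3), a ratio of 338.

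The aminoacylase gene ACY1 was the least abundant of the 3 in the luminous organ and the only one read in every library. It stood at 11.5, 18.7 and 7.10 FPKM in the luminous replicates and at 0.408, 0.523 and 0.266 FPKM in the non-luminous replicates. The groups lay 13.6-fold apart at their nearest values. These levels rest on 239, 398 and 140 reads against 8, 10 and 5 reads. Mean ACY1 was 12.4 ± 5.87 FPKM in luminous libraries and 0.399 ± 0.129 FPKM in the other (SD, n = 3), a ratio of 31.1, and ranked 5931 among the genes of the luminous organ.

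**Figure D1:**
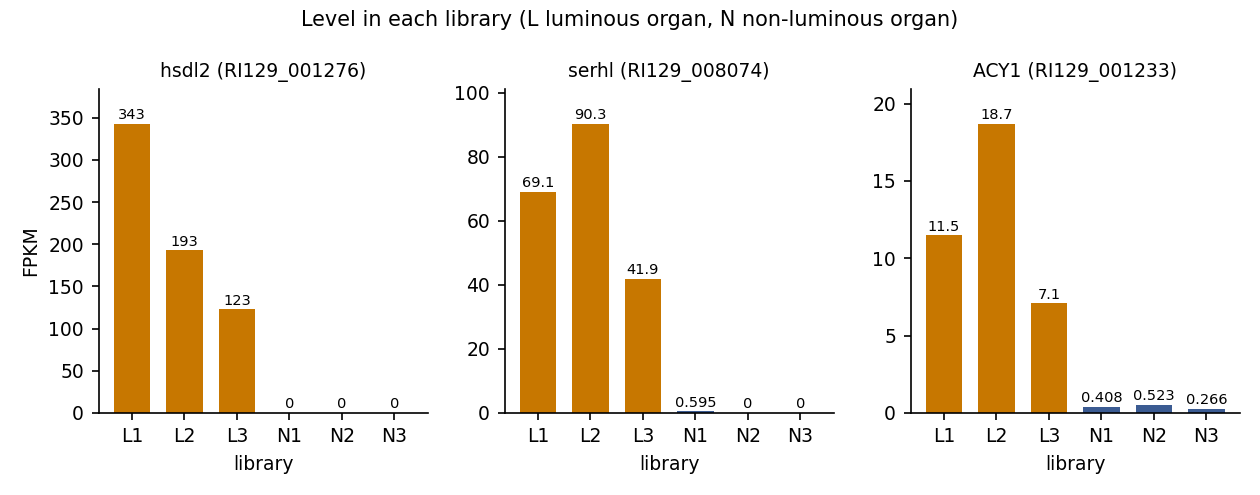
Level of hsdl2, serhl and ACY1 in each library, in FPKM on linear axes that start at 0. L1 to L3 are the luminous and N1 to N3 the non-luminous libraries, each bar is 1 library, and the luminous bars range from 7.10 FPKM for ACY1 to 343 FPKM for hsdl2 while no non-luminous bar exceeds 0.595 FPKM.

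Because the low level in the non-luminous organ chose these 3 genes, their differences between organs are given as a description. No test of them is used, although they stayed among the 9863 genes fitted, over which the shares of all genes are counted. As log2(FPKM + 1), where the added 1 makes differences of low genes smaller than they are, the luminous minus non-luminous differences were 7.66 for hsdl2, 5.80 for serhl and 3.17 for ACY1. Ordered by the luminous organ's share of the FPKM summed over the 6 libraries, hsdl2 was first of 9863 genes with 100%, serhl was number 3 with 99.7% and ACY1 number 15 with 96.9%. Between hsdl2 and serhl lay RI129_003463, described as luciferin 4-monooxygenase, the luciferase of the light reaction, with 99.9%. In all, 19 of the 9863 genes had at least 95% of their FPKM in the luminous organ and 6 had at least 99%, thresholds chosen after the values were seen. In bulk tissue, fewer cells of a type and less RNA per cell cannot be told apart.

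The 3 genes did not share 1 order among the luminous libraries. The level of hsdl2 was highest in replicate 1, which held 52.0% of its luminous FPKM, whereas serhl and ACY1 were highest in replicate 2, with 44.8% and 50.2%. All 3 were lowest in replicate 3, with 18.7%, 20.8% and 19.0%. Among the 950 genes called higher in the luminous organ, replicate 3 was the lowest luminous library for 21.2%. The coefficient of variation over the luminous libraries was 51.0% for hsdl2, 36.2% for serhl and 47.3% for ACY1, against a median of 18.5% over the 9863 genes tested. Of those genes, 23.4% varied as much as serhl or more and 13.7% as much as hsdl2 or more.

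Set against luciferase RI129_003463 in the same library, both on the FPKM scale, hsdl2 was at 64.5%, 51.6% and 42.2% of the luciferase level in luminous replicates 1, 2 and 3. The level of serhl was 13%, 24.1% and 14.3% of luciferase, and ACY1 was at 2.16%, 5.0% and 2.43%. The luciferase gene itself was read 10, 18 and 15 times in the non-luminous replicates and 17545, 12588 and 9111 times in the luminous ones. Non-luminous replicate 1, which held all the non-luminous serhl reads, had those 10 luciferase reads and no hsdl2 read. The source of its serhl reads was not tested.

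Markers of other tissues were found by words in names and descriptions, and several of their sums differed between the organs. The summed level of 15 muscle genes was 23100 to 24000 FPKM in the luminous and 9080 to 11600 FPKM in the non-luminous libraries, with none at 0 in either organ. That of 84 genes described as trypsins, chymotrypsins or peritrophins, enzymes and lining proteins of the gut, was 1600 to 2760 against 5420 to 7100 FPKM. Of these, 16 had no read in the luminous organ and 2 had none in the non-luminous organ. For 5 fat body genes the range was 171 to 309 against 363 to 379 FPKM, for 5 nerve genes 131 to 152 against 90.1 to 119 FPKM, and for 1 tracheal gene 7.67 to 12.3 against 7.37 to 9.29 FPKM. Single genes went both ways. By limma 8 of 15 tested muscle genes were called higher and 1 lower, and 3 of 48 tested gut genes higher and 23 lower. Of 4 tested fat body genes 1 was higher and 3 lower, and of 5 nerve genes 1 was higher and 1 lower. The tracheal gene overlapped between organs and was not called. Of 31 genes described as luciferin 4-monooxygenase, the sum was 988 to 1100 against 601 to 628 FPKM. Of the 21 tested, 2 were called higher and 12 lower by limma, beside 9.63% and 17% of all genes. Without RI129_003463 the sum was 569, 613 and 795 FPKM in luminous replicates 1, 2 and 3 and 601 to 627 FPKM in the non-luminous ones, so that the groups overlapped. The part of tissue content in the levels of hsdl2, serhl and ACY1 was not tested.

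Rows elsewhere in the table that share a description with hsdl2, serhl or ACY1 give a comparison that the choice of the 3 genes did not use. There were 21 such rows, 2 for hsdl2, 7 for serhl and 12 for ACY1, and 13 of them reached a mean of 1 FPKM and were tested. With limma on log2(FPKM + 1), at a Benjamini-Hochberg adjusted p under 0.05, 1 of the 13 was higher and 2 were lower in the luminous organ, and 10 were not called. The 2 lower became 1 without luminous replicate 1, luminous replicate 3 or non-luminous replicate 1, and 0 without non-luminous replicate 2 or 3. Over all 9863 genes, 9.63% were called higher and 17% lower, 26.6% in either direction. The median log2 difference was 0.13 for the 13 rows and -0.09 for all genes tested.

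Both other hsdl2 genes were expressed in the 2 organs, and neither was called on the deposited scale. RI129_009522 stood at 141, 149 and 148 FPKM in the luminous and 153, 155 and 164 FPKM in the non-luminous replicates. The luminous libraries were all slightly lower, but the log2 difference of -0.10 (SE 0.10) did not pass (limma adjusted p = 0.467). RI129_009521 stood at 46.8, 41.2 and 48.5 against 32.7, 35.1 and 39.4 FPKM. Its groups did not overlap either, with the luminous ones higher, and its log2 difference of 0.34 (SE 0.13) did not pass as deposited (limma adjusted p = 0.0862) but did once libraries were rescaled by median of ratios or by quantiles, with a lowest adjusted p of 0.0324. Groups that did not overlap with the luminous organ lower were found for 28.7% of all genes.

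Summed, these 2 genes gave 192 ± 4.22 FPKM (SD, n = 3) in the luminous organ against 193 ± 9.09 FPKM. Adding RI129_001276 brought the luminous sum of hsdl2 genes to 411 ± 108 FPKM and left the non-luminous sum at 193 ± 9.09 FPKM. RI129_001276 made up 64.5%, 50.3% and 38.5% of that sum in luminous replicates 1, 2 and 3. All 3 hsdl2 genes carry the same annotation terms, peroxisome and oxidoreductase activity.

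The serhl rows went in different directions. RI129_008049, whose identifier lies near that of RI129_008074, stood at 188, 223 and 147 FPKM in the luminous and 36.5, 43.1 and 50.2 FPKM in the non-luminous replicates. Its luminous libraries were all higher, and it rose by a log2 difference of 2.07 (SE 0.18, limma adjusted p = 0.00084), with the call kept under all 14 alternatives. In the luminous organ this gene was more abundant than serhl RI129_008074, at 186 ± 37.9 against 67.1 ± 24.3 FPKM (SD, n = 3). RI129_008056, of the same range of identifiers, was at 37.4, 34.4 and 41.7 against 29.3, 30.8 and 27.2 FPKM, higher in all luminous libraries but not called (log2 difference 0.37, SE 0.13, limma adjusted p = 0.0686, with 0.0311 to 0.204 over the alternatives).

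Another 5 serhl rows have identifiers between RI129_004045 and RI129_004052, and none of them was called higher. RI129_004046 had 0.893, 2.68 and 1.89 FPKM in the luminous and 4.57, 6.76 and 6.14 FPKM in the non-luminous replicates, so the groups did not overlap. It fell by 1.31 on the log2 scale (SE 0.29, limma adjusted p = 0.0171), a call lost without non-luminous replicate 2 and without non-luminous replicate 3. RI129_004052 stood at 5.23, 14.6 and 4.71 FPKM against 17.1, 17.6 and 21.0 FPKM. It was called at the edge of the threshold (log2 difference -1.25, SE 0.37, limma adjusted p = 0.0440), and 10 of 14 alternatives lost the call, with adjusted p from 0.00155 to 0.140. RI129_004045, the most abundant of these 5, was not called (limma adjusted p = 0.144), with means of 26.8 ± 7.97 and 37.1 ± 3.35 FPKM (SD, n = 3). RI129_004049 and RI129_004050 stayed under 1 FPKM in every library. The 7 serhl rows without RI129_008074 summed to 261 ± 43.1 FPKM in luminous and 135 ± 7.10 FPKM in non-luminous libraries, and RI129_008074 was 21.7%, 22.6% and 15.7% of the 8-gene sum in the luminous replicates.

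None of the 6 tested aminoacylase rows was called. The most abundant, RI129_005681, stood at 91.3, 78.1 and 83.8 FPKM against 78.8, 76.6 and 75.1 FPKM, and the organs overlapped (log2 difference 0.13, SE 0.11, limma adjusted p = 0.396). RI129_005680 was at 46.8 ± 4.98 and 54.4 ± 4.35 FPKM and RI129_012692 at 11.4 ± 1.88 and 9.56 ± 0.896 FPKM (luminous and non-luminous means, SD, n = 3), with limma adjusted p of 0.252 and 0.388. In the luminous organ ACY1 RI129_001233 at 12.4 FPKM was thus near RI129_012692 in level and well under RI129_005681. Of the 12 rows, 6 did not reach a mean of 1 FPKM.

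RI129_010770, also described as aminoacylase 1, was high in 1 library. It stood at 11.1 FPKM in luminous replicate 1 and at 1.0 and 0.862 FPKM in luminous replicates 2 and 3, against 0.693, 0.890 and 0.272 FPKM in the non-luminous replicates. The 272 reads of replicate 1 compare with 25 and 20 in the other luminous libraries. The gene was not called (limma adjusted p = 0.258). In luminous replicate 1 its level came close to the 11.5 FPKM of ACY1 RI129_001233, and in replicate 2, where ACY1 was highest at 18.7 FPKM, it was near its non-luminous level.

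Summed over the 12 rows without RI129_001233, aminoacylase RNA was 154 ± 5.03 FPKM (SD, n = 3) in the luminous organ against 148 ± 4.93 FPKM. RI129_001233 was 6.78%, 11.2% and 4.35% of the 13-gene sum in luminous replicates 1, 2 and 3. It differs from the others in annotation too. All 12 other aminoacylase rows are assigned to the pathway of arginine biosynthesis, and RI129_001233 to none, although 10 of the 12 carry exactly the same function terms.

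**Figure D2:**
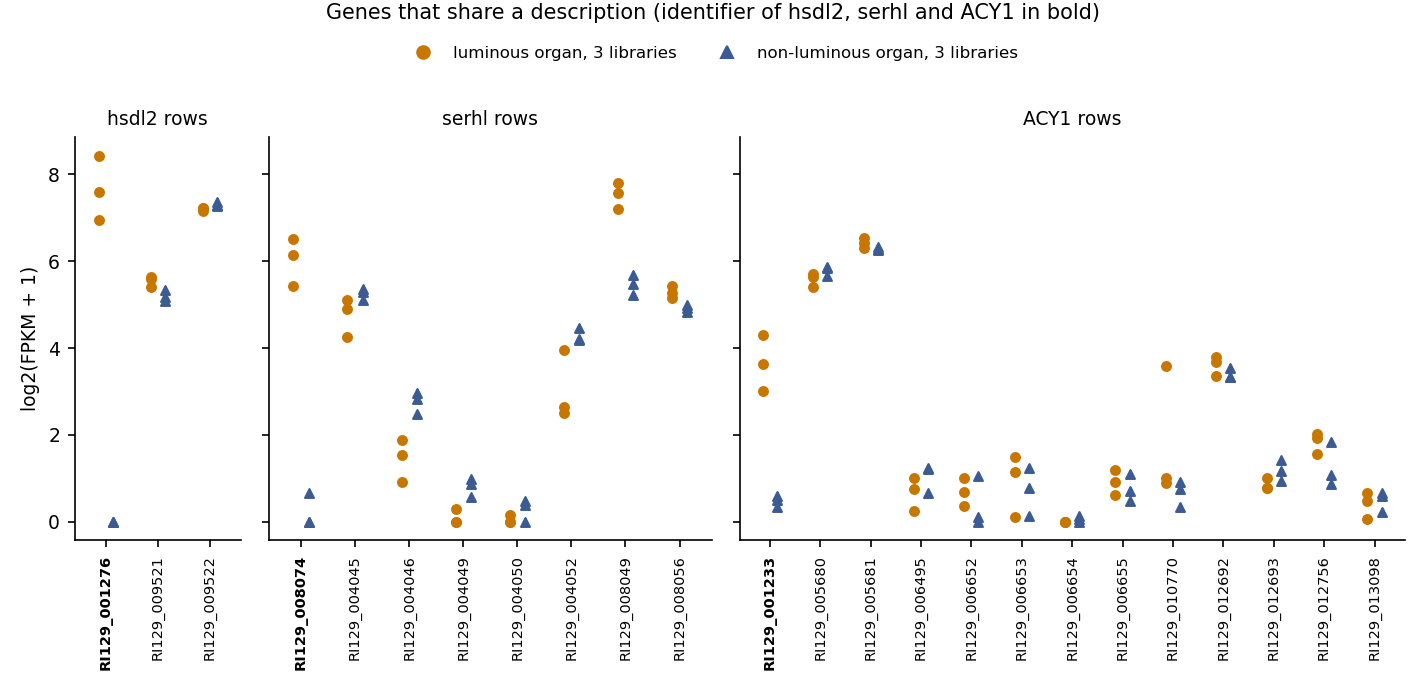
Level of every gene described like hsdl2, serhl or ACY1, as log2(FPKM + 1), with circles for the 3 luminous and triangles for the 3 non-luminous libraries. The 3 genes in bold are hsdl2, serhl and ACY1 themselves, chosen for their low non-luminous level and shown without a test. Among the other rows RI129_008049 alone was called higher, and RI129_010770 has 1 luminous library at 11.1 FPKM apart from the rest.

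Gene lengths worked back from the same steps allow a comparison of the gene models. They are the smallest lengths that give whole reads in all libraries, so a multiple is possible, and 96.3% of those for the 8674 genes with at least 100 reads in a library are multiples of 3, as lengths of coding sequence without untranslated ends are. The length behind hsdl2 RI129_001276 was 1254 bases, or 418 codons, against 1206 and 1236 bases for its 2 namesakes. The length behind serhl RI129_008074 was 891 bases, or 297 codons, against 894 to 1038 bases for 5 namesakes with at least 100 reads summed over the 6 libraries. ACY1 RI129_001233 had 1041 bases, or 347 codons, shorter than each of 9 such namesakes, at 1185 to 1245 bases. Whether reads that match several copies were shared out or dropped is not given in the sources used here.

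The wider family of hsdl2, short-chain dehydrogenases and the related sterol carrier protein, held 66 other genes, of which 56 were tested. By limma 6 of them were higher, 15 lower and 35 not called (10.7% and 26.8%, beside 9.63% and 17% of all genes). Their median log2 difference was -0.31. Leaving out non-luminous replicate 3 brought the counts to 3 higher and 7 lower, and the lower ones numbered 9 without non-luminous replicate 2 and 8 without luminous replicate 3. The largest gain was that of DHRSX (RI129_008030), with 12.1 ± 1.01 FPKM in the non-luminous and 55.6 ± 18.2 FPKM in the luminous libraries (SD, n = 3), a log2 difference of 2.07 (SE 0.22, limma adjusted p = 0.00175). Of 6 tested genes named DHRS4, in mammals a peroxisomal carbonyl reductase, 3 were higher, 2 lower and 1 not called, which became 1 higher, 1 lower and 4 not called without non-luminous replicate 3. Dropping luminous replicate 3, non-luminous replicate 1 or non-luminous replicate 2 also left 1 lower, and dropping luminous replicate 2, luminous replicate 3 or non-luminous replicate 1 left 2 higher. DHRS4 RI129_000567 rose from 21.6 ± 4.22 to 46.7 ± 9.22 FPKM, and DHRS4 RI129_008178 fell from 22 ± 7.18 to 5.86 ± 2.23 FPKM.

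Among the dehydrogenases that fell, RDH14 (RI129_000722), described as a retinol dehydrogenase, went from 44.8 ± 17.8 to 2.97 ± 3.13 FPKM (SD, n = 3; log2 difference -3.74). The carbonyl reductase gene Cbr1 RI129_002262 fell from 32.8 ± 8.33 to 1.74 ± 0.200 FPKM. Of 17 tested genes described as farnesol dehydrogenase, an enzyme of the juvenile hormone route in insects, 7 were lower and 1 higher (41.2% lower, beside 17% of all genes). The 7 became 2 without non-luminous replicate 3, and 3 without non-luminous replicate 2 or luminous replicate 3. The most abundant of them, RI129_013153, stood at 333, 277 and 388 FPKM in the non-luminous and 53.1, 132 and 77.6 FPKM in the luminous libraries. SCP2 (RI129_011986), a peroxisomal sterol carrier and thiolase whose carrier domain is of the kind found in HSDL2, was abundant in both organs and fell from 370 ± 21.5 to 219 ± 40.3 FPKM (log2 difference -0.76, limma adjusted p = 0.0104). The highest difference of a tested gene of the list was 2.07, under that of hsdl2, which was chosen for its difference between the organs.

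The family of serhl, hydrolases with the alpha/beta fold outside the lipases and esterases, held 21 other genes, and 18 were tested. One was higher, 11 were lower and 6 were not called by limma (5.56% and 61.1%, beside 9.63% and 17% of all genes), with a median log2 difference of -1.20. The one higher was serhl RI129_008049. All 4 tested juvenile hormone epoxide hydrolases, which inactivate that hormone, were lower. EH1 RI129_009113 fell from 65.7 ± 15.4 to 13.1 ± 9.46 FPKM and EH2 RI129_009149 from 12.3 ± 0.774 to 2.02 ± 0.650 FPKM (SD, n = 3). Of the 2 genes for kynurenine formamidase, a step of tryptophan breakdown, afmid RI129_000798 fell from 97.6 ± 17 to 33.3 ± 12.2 FPKM and kept its call under all 14 alternatives. The other, RI129_001203, was called lower too (limma adjusted p = 0.0256) but lost the call when luminous replicate 3 or any 1 of the non-luminous libraries was dropped, with an adjusted p of up to 0.0994. Another 5 genes, described as probable serine hydrolase and set apart from the list after their values were seen, were all tested, with 2 lower and 3 not called. The count of 11 lower was 5 without non-luminous replicate 3, 6 without replicate 2 and 7 without replicate 1.

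Aminoacylases and enzymes that make or cut other N-acyl compounds numbered 23 beside ACY1, of which 14 were tested. By limma 1 was higher, 2 were lower and 11 were not called (7.14% and 14.3%, beside 9.63% and 17% of all genes), and the median log2 difference was 0.03. Cndp2 (RI129_007986), a cytosolic dipeptidase of the same M20 family, fell from 179 ± 15.1 to 107 ± 4.36 FPKM (SD, n = 3; log2 difference -0.74, limma adjusted p = 0.00448). The 2 genes for fatty-acid amide hydrolase with successive identifiers went opposite ways: FAAH2 RI129_010459 fell from 54.6 ± 4.17 to 24.1 ± 4.95 FPKM, and FAAH2 RI129_010460 rose from 107 ± 3.40 to 163 ± 25.5 FPKM. The call of RI129_010460 was lost without non-luminous replicates 2 and 3 in turn.

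**Figure D3:**
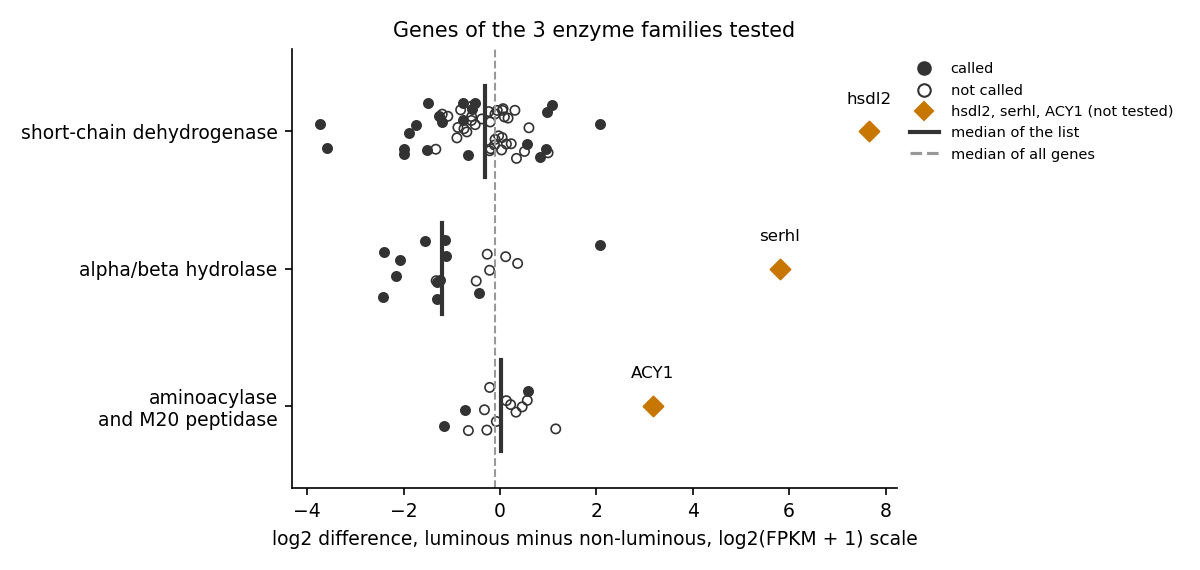
Log2 differences, luminous minus non-luminous, of the tested genes in the 3 enzyme families. Filled points were called and open points were not, and thick lines mark medians of -0.31, -1.20 and 0.03 from top to bottom. The diamonds of hsdl2, serhl and ACY1 lie to the right of the other genes of their family. These 3 genes were chosen for their low non-luminous level, so their place is part of the choice.

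Likeness to other genes was measured on the division of a gene's summed FPKM over the 6 libraries, as the percent that would have to move between libraries to make 2 genes alike. It describes these 6 libraries, and most of it is set by the organ. Closest to hsdl2 were PAPSS2 (RI129_010993), the enzyme behind the sulfate donor PAPS, at 6.80%, SCCPDH (RI129_004818), described as a saccharopine dehydrogenase-like oxidoreductase, at 7.0%, the receptor kinase gene Cad96Ca (RI129_001390) at 7.13%, the luciferase gene RI129_003463 at 7.68% and the homeobox gene Abd-B (RI129_000704) at 9.33%. Closest to serhl was ACY1 itself at 6.76%, ahead of the transporter gene Abcc4 (RI129_005277) at 9.38%. ACY1 lay closest to Arsb (RI129_007668), described as arylsulfatase B, at 2.96%, with serhl second at 6.76%. From hsdl2, serhl lay 17.8% and ACY1 22.5% away.

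SCCPDH and Arsb were low genes. SCCPDH RI129_004818 stood at 17.6, 7.74 and 4.65 FPKM in the luminous replicates and at 0, 0 and 0.259 FPKM in the non-luminous ones. Arsb stood at 1.97, 3.36 and 1.07 against 0.0552, 0.142 and 0.0865 FPKM. A second saccharopine dehydrogenase-like gene, Sccpdh RI129_004625, came next after serhl in closeness to ACY1 at 10.5%, with 17.4, 24.1 and 9.37 against 3.63, 1.70 and 2.72 FPKM. Like hsdl2, the first saccharopine dehydrogenase-like gene was highest in luminous replicate 1, and like ACY1 the other was highest in replicate 2. They were picked by their division over the libraries, so this order is part of the choice and no further likeness.

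**Figure D4:**
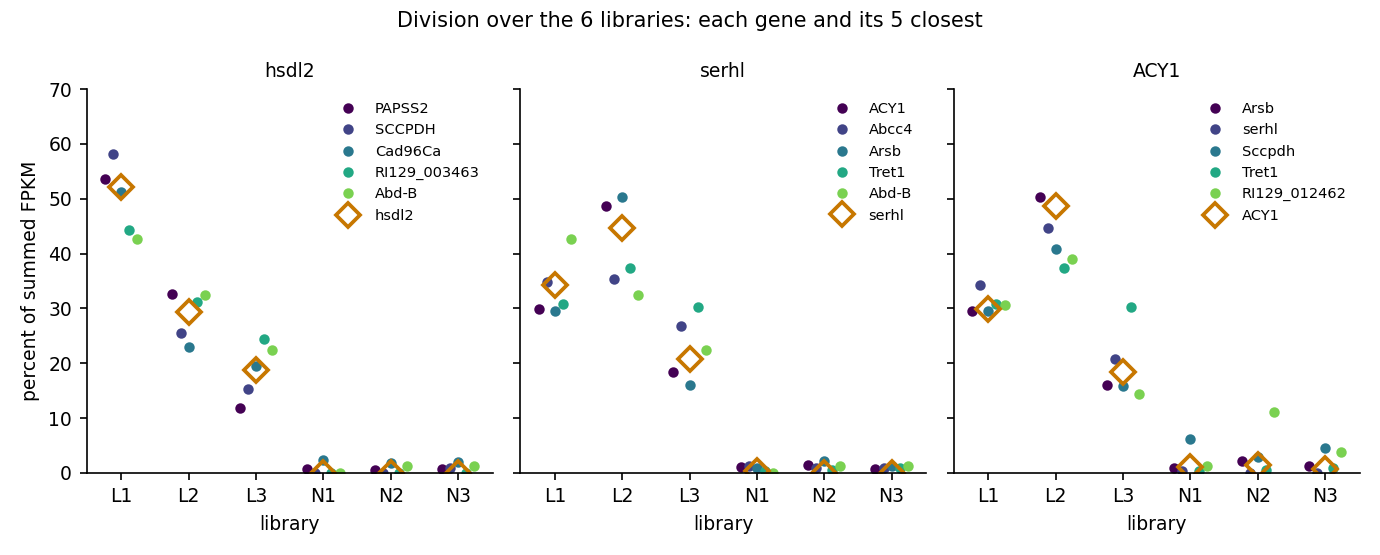
Percent of each gene's FPKM summed over the 6 libraries that falls in each library, for hsdl2, serhl and ACY1 (diamonds) and the 5 genes closest to each (points, set side by side). L1 to L3 are luminous and N1 to N3 non-luminous libraries, and hsdl2 peaks in L1 while serhl and ACY1 peak in L2.

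Genes with identifiers up to 5 numbers away did not share the pattern of the 3 enzymes. Positions in the genome are not used here, so whether successive identifiers are neighbours on a chromosome is not known. Around hsdl2, 7 of 10 identifiers are listed, 5 of them without a description, and of the 4 tested 0 were called higher and 1 lower. That 1, RI129_001274, stood at 0.232 ± 0.200 against 4.13 ± 1.94 FPKM (SD, n = 3; log2 difference -2.01, limma adjusted p = 0.00583), and the highest luminous mean among the 7 was 30.2 FPKM, of Cd164 (RI129_001281). Around serhl, 10 are listed and tested, 2 higher and 2 lower, beside 9.63% and 17% of all genes. The 2 higher were crm (RI129_008073), for Protein cramped, at 0.46, and RI129_008078, described as venom allergen 5.02, at 1.03 on the log2 scale. RPS3 (RI129_008076), a ribosomal protein gene next but one to serhl by number, was high in both organs and not called. Around ACY1, 10 are listed and 9 tested, with 0 higher and 2 lower. One of these 2 was agmo (RI129_001232), for alkylglycerol monooxygenase, an enzyme that cuts ether lipids, which precedes ACY1 by number and fell from 199 ± 15.1 to 105 ± 16.8 FPKM (limma adjusted p = 0.00499).

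**Figure D5:**
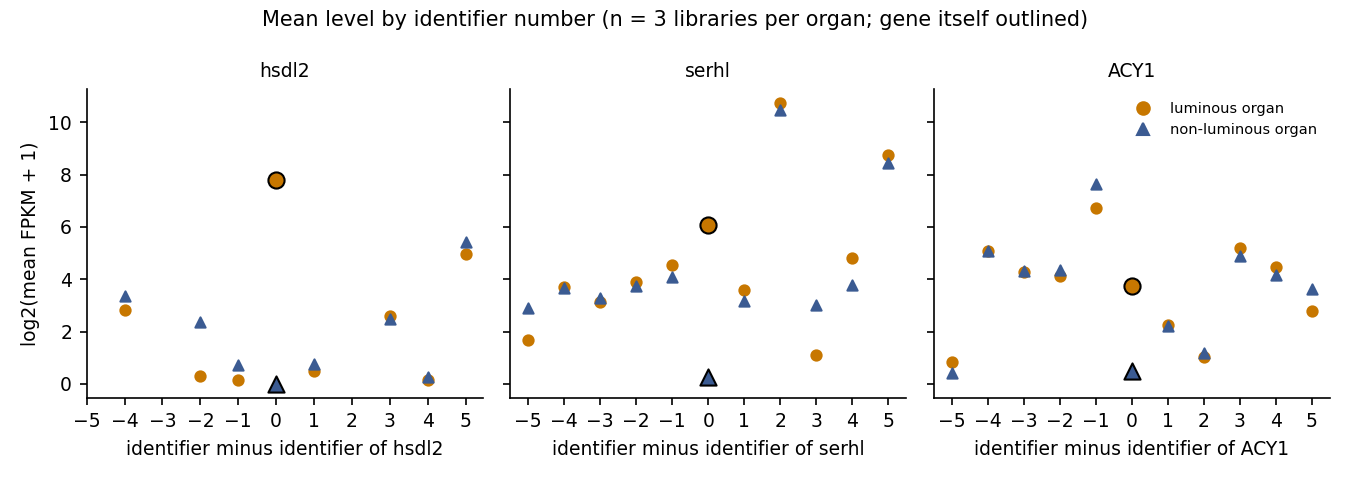
Mean level in each organ (n = 3 libraries) as log2(mean FPKM + 1) for the genes with identifiers up to 5 numbers from hsdl2, serhl and ACY1, which are outlined at 0. Circles are luminous and triangles non-luminous means, and the wide gap between the 2 symbols is seen at 0 in each panel.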

How the data were processed

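RNA of 6 libraries was analysed as FPKM, the unit of the table the authors deposited, with 1 column per library. HISAT2, HTSeq, Trimmomatic and R 3.2.0 stand in the list of tools, per the submitters' processing notes, with no role. Genome build, annotation and strand setting: not given in the sources used here. Values were tested as log2(FPKM + 1) with limma 3.58.1 in R 4.3.3 (lmFit, eBayes with a trend, no block, two-sided, Benjamini-Hochberg adjustment over the 9863 genes averaging 1 FPKM or more).

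Whole reads (within 0.05) came out for 99.98% of 11795 genes above 0 in at least 3 libraries. Read recovery, tested on simulated data, was exact for 669 of 669 genes with at least 100 reads and no common divisor among their reads. Recovery of reads with a common divisor was not tested. A multiple of the smallest length thus stays possible, also for hsdl2, which was read only in the luminous libraries. Library totals were 18037627 to 20417645 reads, so 1 read in hsdl2 is worth 0.0391 to 0.0442 FPKM.

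The 3 genes and the family lists, made by words in descriptions, were chosen with earlier results of these data known. Named genes are all rows sharing a description, the largest called differences and most abundant genes per family, those within 5 identifiers and the 5 closest in profile; the text uses a subset. Counts by subfamily were added after the values were seen. Alternatives were pseudocounts of 0.1 and 5, no filter or a minimum of 5 FPKM, 2 rescalings, no trend, a replicate block and each library left out.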

Additional observations from a re-analysis of the deposited data

How the results depend on the processing

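The log2 differences of hsdl2, serhl and ACY1 kept their direction in the 10 alternatives run for them (2 pseudocounts, 2 rescalings and 6 left-out libraries). They moved with the pseudocount by its construction, to 10.98, 8.39 and 4.57 with 0.1 and to 5.37, 3.74 and 1.64 with 5, and ranged from 7.28 to 8.01, 5.55 to 6.10 and 2.85 to 3.49 with 1 library left out. Calls among all genes numbered 2626, with 1119 to 2648 when 1 library was left out (1606 when luminous replicate 3 was dropped, and 1532, 1577 and 1119 for non-luminous replicates 1, 2 and 3). Without luminous replicate 1 there were 2648 and without luminous replicate 2 there were 2618. On the deposited scale 36.2% of these calls were higher, against 46.3% with median-of-ratios and 52.8% with quantile scaling, and the median difference of all genes moved from -0.095 to -0.003 and 0.068.

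Among the rows that share a description, 1 was higher and 2 lower. After either rescaling 3 were higher and 1 lower. Lower rows numbered 1 without a trend, 1 with the replicate block, and 0 to 2 with 1 library left out. With a minimum of 5 FPKM there was 1 lower row, because 9 rows were tested and RI129_004046 was not among them. Alpha/beta hydrolase genes higher were 2 after either rescaling, and those lower 5 to 12 with 1 library left out. In the list of aminoacylases and enzymes of other N-acyl compounds, genes higher were 2 after either rescaling and 2 with the replicate block. These were the FAAH2 genes RI129_010323 and RI129_010460. The list had 0 to 1 genes higher with 1 library left out. With 1 library left out, short-chain dehydrogenase genes higher were 3 to 8 and lower 7 to 19. For these shifts the cause was not tested. Of 36 called family genes, 18 were called under all alternatives and 18 were lost in at least 1, and none reversed.

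Whether a replicate number marks a shared animal is not given in the labels, and correlations over 3 libraries per organ cannot decide it. Deviations from group means of same-numbered libraries correlated, across genes, at -0.111, -0.009 and -0.166, and no library correlated best with its own number. With the number as a block, 1996 genes were called. Depth limits the low rows, since 3 reads over the non-luminous organ correspond to 0.0433 FPKM in hsdl2.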
